A study of Mus musculus with 6 samples.

Results

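DNA replication and S-phase genes are described here in cultured mouse astrocytes after miR-29 was raised: 43 genes taken from a fixed list of symbols that covers origin licensing, the replicative helicase, DNA polymerases, clamp and clamp loader, nucleotide supply, E-type cyclins and chromatin assembly. A gene was found on the array where the RefSeq accession of a probe, without its version, belongs to the listed symbol. By that rule 41 of the 43 genes had a probe (48 probes), and all 41 were among the 19741 genes and transcripts tested. Rpa1 and Rrm2 had no matched probe and are not analysed here. The 41 genes were well above background on all 6 arrays, so none entered through 1 group alone.

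The cells were primary astrocytes of C57BL/6 mouse cerebral cortex at embryonic day 18, bought as a culture. The miR-29 group received the Pre-miR precursors of hsa-miR-29a, hsa-miR-29b and hsa-miR-29c mixed 1 to 2 to 1, and the control group received Pre-miR Negative Control1, each at 80 nM and 3 weeks after plating. RNA was taken 48 h after transfection, with a stated efficiency above 90% judged by a fluorescent precursor. Each group holds 3 arrays, which the labels call extraction replicates. The labels name no separate cultures, and the p-values then describe only how far these extracts spread, which could be technical.

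Eukaryotic replication starts in 2 steps that the cell keeps apart. Before S phase the origin recognition complex, with Cdc6 and Cdt1, loads the Mcm2 to Mcm7 ring onto DNA. In S phase, kinases that include cyclin E with Cdk2 turn the ring into an active helicase by adding Cdc45 and the GINS complex, and the polymerases, the Pcna clamp and its loader follow. Many of these genes are transcribed under E2F factors as cells pass from G1 into S phase, and quiescent cells carry little of their messenger RNA. Cultured astrocytes from fetal cortex can still divide.

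The transfected family is shown first, because all its mature forms share the seed through which a microRNA pairs with its targets. Capitals mark the seed, bases 2 to 8, in the mouse mature sequences of RefSeq (GRCm38.p6).
mmu-miR-29a-3p: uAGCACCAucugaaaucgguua
mmu-miR-29b-3p: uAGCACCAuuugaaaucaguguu
mmu-miR-29c-3p: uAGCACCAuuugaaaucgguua
The 3 sequences carry the same seed, AGCACCA, and differ only after it.

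Promoters are shown because many members are known E2F targets and their messages differed in how far they fell. RefSeq windows (GRCm38.p6) held 35 of the 43 listed genes. Each sequence below is the 250 bases before the start of transcription, read in the direction of the gene, with capitals on every match to TTTCCCGC, TTTCGCGC, TTTGCCGC or TTTGGCGC on either strand, 4 forms of the E2F site. Cdc6, Mcm5 and Orc1 fell after miR-29. Mcm6 and Gins3 did not pass by the main scaling and were lower by the spike-in scaling described further on. Cdc6 lies at chr11:98907901-98908150 (plus strand), Mcm5 at chr8:75109259-75109508 (plus strand), Orc1 at chr4:108579204-108579453 (plus strand), Mcm6 at chr1:128359706-128359955 (minus strand) and Gins3 at chr8:95633309-95633558 (plus strand).
Cdc6: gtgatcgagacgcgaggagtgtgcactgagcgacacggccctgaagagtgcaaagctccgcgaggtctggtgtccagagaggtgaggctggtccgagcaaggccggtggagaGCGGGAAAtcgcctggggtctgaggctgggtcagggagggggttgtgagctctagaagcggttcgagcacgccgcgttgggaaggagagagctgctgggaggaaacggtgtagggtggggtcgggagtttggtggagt
Mcm5: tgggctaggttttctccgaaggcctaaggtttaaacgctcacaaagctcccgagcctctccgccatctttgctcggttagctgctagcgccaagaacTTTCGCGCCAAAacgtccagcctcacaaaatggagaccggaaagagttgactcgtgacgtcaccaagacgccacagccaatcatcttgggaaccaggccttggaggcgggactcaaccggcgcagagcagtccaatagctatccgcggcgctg
Orc1: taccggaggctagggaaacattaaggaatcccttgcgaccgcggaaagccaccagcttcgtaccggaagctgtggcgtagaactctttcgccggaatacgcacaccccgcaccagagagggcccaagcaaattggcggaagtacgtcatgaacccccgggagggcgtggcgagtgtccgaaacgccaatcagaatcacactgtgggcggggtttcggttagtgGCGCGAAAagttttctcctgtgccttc
Mcm6: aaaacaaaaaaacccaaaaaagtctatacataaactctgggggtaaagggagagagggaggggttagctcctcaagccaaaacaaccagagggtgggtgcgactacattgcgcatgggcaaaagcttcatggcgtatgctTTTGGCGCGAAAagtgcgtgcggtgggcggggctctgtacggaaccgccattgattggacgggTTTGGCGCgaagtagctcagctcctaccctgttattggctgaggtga
Gins3: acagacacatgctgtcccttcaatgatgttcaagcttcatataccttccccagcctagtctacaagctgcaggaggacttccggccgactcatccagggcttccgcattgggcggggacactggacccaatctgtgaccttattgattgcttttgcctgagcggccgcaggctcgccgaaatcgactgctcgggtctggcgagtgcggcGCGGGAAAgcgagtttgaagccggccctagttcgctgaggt
The Cdc6 match begins 138 bases before the start and the Orc1 match 27 bases before it. Overlapping matches on opposite strands form the Mcm5 run (153 and 149 bases before the start) and the first Mcm6 run (110 and 106 bases), and Mcm6 has a further match at 47 bases. The Gins3 match begins at 41 bases. Genes that fell and genes that did not pass both carry such letters, and a match is a description of the sequence, not a shown site.

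Of the 41 genes tested, 22 were lower after miR-29, 3 were higher and 16 did not pass (limma over all genes, Benjamini-Hochberg adjusted p under 0.05, two-sided). The 22 are 53.7% of the genes, where 22.8% of everything tested was lower, and the 3 are 7.32%, where 35.3% of everything tested was higher. The median log2 fold change was -0.26, beside 0.068 over all genes. At least 2-fold lower were 7 genes (17.1%, against 3.64% of everything tested): Cdc6, Cdt1, Mcm5, Mcm10, Rfc5, Tk1 and Ccne2. With normexp, another background correction that here added 50 to every signal, Cdc6 was lower by less than 2-fold, at -0.88. Cdt1, Mcm5 and Mcm10 stayed at least 2-fold lower, at -1.42, -1.22 and -1.42. Values of Rfc5, Tk1 and the dim Ccne2 in that setting are not given here. In 22 genes every miR-29 array lay below every control array, against 26.4% of everything tested, and in 5 every miR-29 array lay above, against 39.9%.

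Values are log2 signals scaled to each array: the log2 of the processed spot intensity minus the log2 of that array's 75th percentile, so that 0 is the 75th percentile of the array. Probes differ in how well they hybridise, so a scaled signal is compared between arrays for 1 probe, never between genes. A fold change is the miR-29 mean minus the control mean on this scale, with its standard error (SE, n = 3 per group). Overlap between the groups of a gene is read on this scale too, and can differ by spike-in scaling. In whole cultures, fewer dividing cells and less RNA per cell cannot be told apart. Slide 2 held control replicates 2 and 3, and slide 1 held control replicate 1 with all 3 miR-29 arrays. Values with the slide as a block are therefore given beside the counts. In that fit a gene's fold change equals the difference from control replicate 1.

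Across arrays, 62.5% to 67.3% of probes were well above background, the 75th percentile lay between 501 and 663 and 0 spots were saturated. The correlation over genes was 0.994 to 0.998 within a group. The number of arrays limits the precision.

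**Figure D1:**
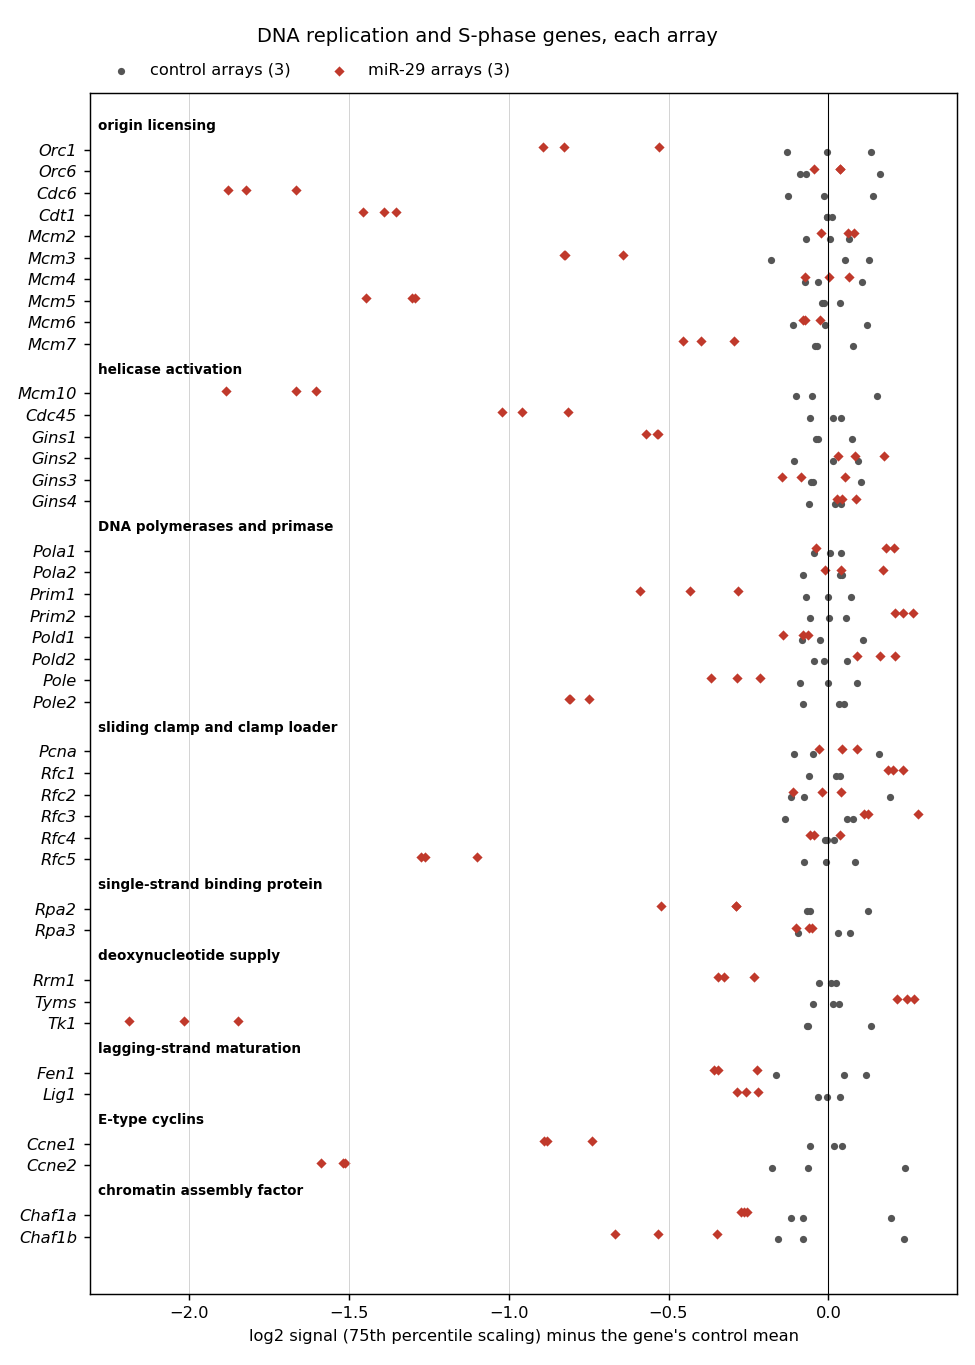
Scaled log2 signal of each of the 41 genes on every array, minus the gene's control mean (horizontal axis, log2 units), in rows ordered by role. Grey circles are the 3 control arrays and red diamonds the 3 miR-29 arrays; Cdc6, Cdt1, Mcm5, Mcm10, Rfc5, Tk1 and Ccne2 stand more than 1 unit to the left, while Mcm2, Mcm4, Mcm6 and Pcna overlap with their controls.

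Counts by role are to be read beside 22.8% lower and 35.3% higher of everything tested, or 38.5% and 15.2% by the spike-ins. Of the 10 origin licensing genes, 6 fell (60%) and 0 rose (median -0.57), and 9 (90%) were lower by spike-in scaling. The loading factors Cdc6 and Cdt1 and the ring subunit Mcm5 were at least 2-fold lower. Mcm2, Mcm4 and Mcm6, of the same ring, were not past the threshold by 75th percentile scaling, and Mcm4 and Mcm6 were lower by the spike-ins.

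Cdc6 (NM_011799), the ATPase that brings the Mcm ring to the origin, was at -4.11, -3.95 and -4.17 after miR-29 and -2.30, -2.41 and -2.15 in the controls. The groups lie more than 1 unit apart. Cdc6 fell by 1.79 (SE 0.0915, adjusted p = 5.98e-05), which is 3.45-fold. Cdt1 (NM_026014), the partner that carries the ring, was at 1.20, 1.16 and 1.09 after miR-29 and 2.56, 2.55 and 2.55 in the controls, with the controls nearly equal. It fell by 1.40 (SE 0.0478, adjusted p = 2.96e-05), or 2.64-fold.

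Orc1 (NM_011015), the largest subunit of the origin recognition complex, was at -4.51, -4.87 and -4.80 after miR-29 and -3.85, -3.98 and -4.11 in the controls. All of its miR-29 arrays lie below its controls, and it fell by 0.75 (SE 0.117, adjusted p = 0.00255). Orc6 (NM_019716), the smallest subunit, was at 2.90, 2.90 and 2.82 after miR-29 and 3.03, 2.78 and 2.79 in the controls. Control replicate 1 is its highest array and the groups overlap. The Orc6 fold change was 0.0085 (95% interval -0.19 to 0.21, adjusted p = 0.932).

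Mcm5 (NM_008566), a subunit of the ring, was at -0.34, -0.33 and -0.48 after miR-29 and 1.00, 0.94 and 0.95 in the controls. It fell by 1.35 (SE 0.0586, adjusted p = 4.47e-05), or 2.54-fold, with no overlap. Mcm3, its neighbour in the ring, was at -1.82, -1.64 and -1.82 after miR-29 and -0.87, -1.18 and -0.94 in the controls and fell by 0.76 (SE 0.0995, adjusted p = 0.00126). Mcm7 was at 2.27, 2.37 and 2.21 after miR-29 and 2.74, 2.63 and 2.62 in the controls. The Mcm7 groups are close but separate, and it fell by 0.38 (SE 0.0641, adjusted p = 0.00339).

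The remaining ring subunits overlapped between the groups. Mcm2 was at 0.56, 0.67 and 0.65 after miR-29 and 0.52, 0.59 and 0.65 in the controls, a fold change of 0.040 (95% interval -0.10 to 0.18, adjusted p = 0.573). Mcm4 was at 2.87, 2.94 and 2.80 after miR-29 and 2.98, 2.84 and 2.80 in the controls, and its fold change was -0.0034 (95% interval -0.17 to 0.16, adjusted p = 0.968). For Mcm6 the arrays read 4.44, 4.40 and 4.39 after miR-29 and 4.59, 4.36 and 4.46 in the controls, with control replicate 1 highest, a fold change of -0.060 (95% interval -0.23 to 0.11, adjusted p = 0.485). The lowest bound among these 3 intervals, -0.23, lies above the fold changes of Mcm3, Mcm5 and Mcm7. The Mcm7 interval, -0.540 to -0.226, still meets that of Mcm6, -0.230 to 0.11, and the difference between these 2 subunits was not tested.

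Of the 6 helicase activation genes, 3 fell (50%) and 0 rose (median -0.30). Mcm10, Cdc45 and Gins1 were lower. The other 3 GINS subunits were not past the threshold by 75th percentile scaling, and Gins3 was lower by spike-in scaling.

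Mcm10 (NM_027290), which helps the assembled helicase to start unwinding and is no subunit of the ring, was at -1.63, -1.57 and -1.85 after miR-29 and 0.19, -0.017 and -0.065 in the controls. It fell by 1.72 (SE 0.102, adjusted p = 8.67e-05), or 3.29-fold. Cdc45, the helicase cofactor, was at -3.24, -3.03 and -3.18 after miR-29 and -2.18, -2.28 and -2.20 in the controls. The miR-29 arrays sit close to 1 unit below the controls, and Cdc45 fell by 0.93 (SE 0.0689, adjusted p = 0.000165).

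GINS is a 4-subunit cofactor of the helicase. Its Gins1 subunit was at -1.25, -1.21 and -1.21 after miR-29 and -0.60, -0.72 and -0.71 in the controls, without overlap, and fell by 0.55 (SE 0.0512, adjusted p = 0.000367). Gins2 was at -0.12, -0.18 and -0.033 after miR-29 and -0.11, -0.31 and -0.19 in the controls, a fold change of 0.095 (95% interval -0.079 to 0.27, adjusted p = 0.287). Gins3 was -0.060 (95% interval -0.24 to 0.13, adjusted p = 0.519) and Gins4 was 0.051 (95% interval -0.070 to 0.17, adjusted p = 0.404), both with overlapping groups.

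Among the 8 polymerase and primase genes, 3 fell (37.5%) and 1 was higher (median -0.014). The spike-ins gave 4 lower (50%, where 38.5% of everything tested was lower) and 0 higher. Pole and Pole2, the 2 listed subunits of the leading-strand polymerase epsilon, fell by both scalings. Its other subunits, which are not among the 43 and were looked up after the values were seen, did not fall by 75th percentile scaling: Pole4 rose by 0.40 (SE 0.0572, adjusted p = 0.00177), or 0.15 (adjusted p = 0.12) by the spike-ins, and Pole3 was at 0.0034 (SE 0.06, adjusted p = 0.964), or -0.25 (adjusted p = 0.0217) by the spike-ins. Those listed of polymerase alpha and delta did not pass by the 75th percentile, and Pold1 was lower by the spike-ins.

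Pole2, the second subunit of polymerase epsilon, was at -2.74, -2.74 and -2.68 after miR-29 and -1.88, -2.01 and -1.90 in the controls. The groups are well separated, and Pole2 fell by 0.79 (SE 0.0546, adjusted p = 0.000134). Pole, the catalytic subunit, was at -0.52, -0.36 and -0.44 after miR-29 and -0.059, -0.24 and -0.15 in the controls and fell by 0.29 (SE 0.0691, adjusted p = 0.0134). The smaller Pole difference still leaves its groups apart.

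Prim1, the catalytic subunit of the primase that lays RNA primers, was at -0.070, 0.079 and -0.23 after miR-29 and 0.36, 0.29 and 0.43 in the controls and fell by 0.43 (SE 0.0893, adjusted p = 0.00756). Prim2, the large primase subunit, was at 0.84, 0.78 and 0.81 after miR-29 and 0.52, 0.63 and 0.58 in the controls, the miR-29 arrays being above the controls. Prim2 was higher by 0.23 (SE 0.05, adjusted p = 0.00862) by 75th percentile scaling and -0.016 (adjusted p = 0.868) by spike-in scaling, where the sign turned.

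Of the DNA polymerase alpha genes, which extend the primers, Pola1 had a fold change of 0.11 (95% interval -0.077 to 0.30, adjusted p = 0.247) and Pola2 of 0.067 (95% interval -0.10 to 0.23, adjusted p = 0.425). Pold1, the catalytic subunit of the lagging-strand polymerase delta, was at 1.65, 1.72 and 1.71 after miR-29 and 1.89, 1.71 and 1.76 in the controls, a fold change of -0.095 (95% interval -0.25 to 0.062, adjusted p = 0.243). With the slide as a block it was -0.20 (adjusted p = 0.0479), past the threshold. Pold2, the accessory subunit, was at 0.10, 0.028 and 0.15 after miR-29 and -0.0039, -0.076 and -0.11 in the controls. All its miR-29 arrays lie above the controls, but at 0.15 (95% interval 0.018 to 0.29, adjusted p = 0.0546) it was just outside the threshold. Without control replicate 1 its adjusted p was 0.0298.

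Of the 6 genes of the clamp and its loader, 1 fell (16.7%, where 22.8% of everything tested was lower) and 1 was higher (median 0.0061), and the spike-ins gave 3 lower (50%, where 38.5% of everything tested was lower) and 0 higher. Rfc5 was the 1 gene of these 6 lowered by 2-fold or more.

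Rfc5 (NM_028128), a small subunit of the replication factor C loader, was at -0.84, -0.66 and -0.82 after miR-29 and 0.52, 0.36 and 0.43 in the controls. Every miR-29 array is more than 1 unit below every control, and Rfc5 fell by 1.21 (SE 0.0723, adjusted p = 8.71e-05), or 2.31-fold. Rfc1, the large subunit, was at 2.27, 2.28 and 2.32 after miR-29 and 2.12, 2.02 and 2.11 in the controls. Rfc1 was higher by 0.21 (SE 0.0488, adjusted p = 0.0126) by 75th percentile scaling, 0.17 (adjusted p = 0.0727) with the slide as a block, and -0.043 (adjusted p = 0.646) by spike-in scaling, where the sign turned.

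Pcna, the clamp that tethers the polymerases, was at 3.65, 3.69 and 3.58 after miR-29 and 3.76, 3.50 and 3.56 in the controls. Its groups overlap on this scale, though not by the spike-ins, with a fold change of 0.034 (95% interval -0.17 to 0.23, adjusted p = 0.738). Rfc2 had a fold change of -0.031 (95% interval -0.27 to 0.20, adjusted p = 0.793) and Rfc4 of -0.022 (95% interval -0.14 to 0.10, adjusted p = 0.714), both overlapping. Rfc3 was at -0.47, -0.48 and -0.31 after miR-29 and -0.73, -0.52 and -0.53 in the controls, above its controls on each miR-29 array, with 0.17 (95% interval -0.028 to 0.37, adjusted p = 0.117). The slide as a block put Rfc3 past the threshold as higher, at 0.31 (adjusted p = 0.0358), whereas spike-in scaling gave -0.079 (adjusted p = 0.58).

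Replication protein A coats single-stranded DNA at the fork. Rpa2, its middle subunit, was at -0.73, -0.73 and -0.96 after miR-29 and -0.32, -0.50 and -0.51 in the controls and fell by 0.37 (SE 0.0905, adjusted p = 0.015). Rpa3, the small subunit, was at 0.51, 0.52 and 0.47 after miR-29 and 0.48, 0.60 and 0.64 in the controls, with overlap and a fold change of -0.071 (95% interval -0.21 to 0.073, adjusted p = 0.333).

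Of the 3 genes tested for deoxynucleotide supply, 2 fell and 1 was higher, and Tk1 had the largest fall of the 41 by both scalings. Tk1 (NM_009387), the S-phase thymidine kinase of the salvage pathway, was at -1.51, -1.34 and -1.68 after miR-29 and 0.63, 0.44 and 0.44 in the controls. It fell by 2.02 (SE 0.105, adjusted p = 6.09e-05), or 4.05-fold, with the groups more than 1 unit apart. Rrm1, the large subunit of ribonucleotide reductase, was at 1.46, 1.56 and 1.45 after miR-29 and 1.81, 1.76 and 1.80 in the controls and fell by 0.30 (SE 0.0509, adjusted p = 0.0035). Tyms, which makes thymidylate by the other route, was at 2.09, 2.12 and 2.14 after miR-29 and 1.91, 1.83 and 1.89 in the controls, above the controls on each miR-29 array. Tyms was higher by 0.24 (SE 0.047, adjusted p = 0.00597) by 75th percentile scaling and -0.0078 (adjusted p = 0.936) by spike-in scaling, where the sign turned.

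Both lagging-strand genes fell by small amounts. Lig1, the ligase that seals Okazaki fragments, was at 2.06, 2.02 and 1.99 after miR-29 and 2.24, 2.31 and 2.27 in the controls and fell by 0.25 (SE 0.0464, adjusted p = 0.00473). Fen1, the flap endonuclease that trims them, was at -0.19, -0.057 and -0.18 after miR-29 and 0.28, 0.0026 and 0.22 in the controls and fell by 0.31 (SE 0.0876, adjusted p = 0.0247). The Fen1 groups nearly touch, and it no longer passed when replicate 1 or 3 of miR-29 or replicate 3 of the controls was left out (adjusted p between 0.0581 and 0.0789 over all the settings that lost it).

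The E-type cyclins, which activate Cdk2 at the entry into S phase, both fell. Ccne1 was at 1.36, 1.22 and 1.21 after miR-29 and 2.14, 2.11 and 2.04 in the controls and fell by 0.84 (SE 0.0617, adjusted p = 0.000163). Ccne2 (NM_001037134) was at -4.37, -4.30 and -4.29 after miR-29 and -2.54, -2.84 and -2.96 in the controls, more than 1 unit apart, and fell by 1.54 (SE 0.111, adjusted p = 0.000152), or 2.91-fold.

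Chromatin assembly factor 1 places histones behind the fork. Chaf1b, its middle subunit, was at -0.51, -0.33 and -0.64 after miR-29 and 0.26, -0.059 and -0.14 in the controls and fell by 0.52 (SE 0.131, adjusted p = 0.0166). Chaf1a, the large subunit, was at -0.55, -0.54 and -0.53 after miR-29 and -0.078, -0.39 and -0.35 in the controls and fell by 0.26 (SE 0.0907, adjusted p = 0.0469). The miR-29 arrays of Chaf1a are nearly equal and its spread lies in the controls, with control replicate 1 the highest. The Chaf1a call was lost without any 1 of the miR-29 arrays and without control replicate 3 (adjusted p between 0.0615 and 0.118 over all the settings that lost it), and the Chaf1b call without miR-29 replicate 1 or 3 (adjusted p = 0.051 and 0.0523).

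Where a gene had a further probe on the array, both probes pointed the same way in all 7 such genes, in a fit over all probes. The further probe gave -1.10 for Cdc6, -0.41 for Gins1, -0.50 for Ccne1 and -1.87 for Ccne2, each past the threshold. For Cdc6 this is a smaller fall than on the main probe and for Ccne2 a larger one. It gave 0.26 for Tyms (adjusted p = 0.00787), and for Pold1 and Rfc2, which did not pass on either probe, -0.15 and -0.17.

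The scaling of the arrays sets where no change lies. RNA of known amount, the spike-in mix, had been added to every sample. Scaling each array to the mean log2 signal of its 6 detected spike-in types shifted every fold change by -0.25. The median of all genes went from 0.068 to -0.18 and that of the 41 from -0.26 to -0.51. By this scaling 30 of the 41 (73.2%) were lower, where 38.5% of everything tested was lower. None (0) was higher, where 15.2% of everything tested was higher. The 22 genes lower by the 75th percentile were all lower by the spike-ins too. Another 8 that had not passed became lower: Orc6, Mcm4, Mcm6, Gins3, Pold1, Rfc2, Rfc4 and Rpa3. Prim2, Rfc1 and Tyms lost their calls as higher, with signs turned, and Mcm2, Gins2, Gins4, Pola1, Pola2, Pold2, Pcna and Rfc3 passed by neither scaling. Orc6 went from 0.0085 to -0.24 (adjusted p = 0.031). Fold changes by the spike-ins ran from -2.27 (Tk1) to -0.0078 (Tyms), so all 41 were below 0. In 35 of the 41 every miR-29 array lay below every control array by this scaling. That share was not counted over everything tested. The scaling shifts every gene, so the 35 are not read as a result about these genes.

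**Figure D2:**
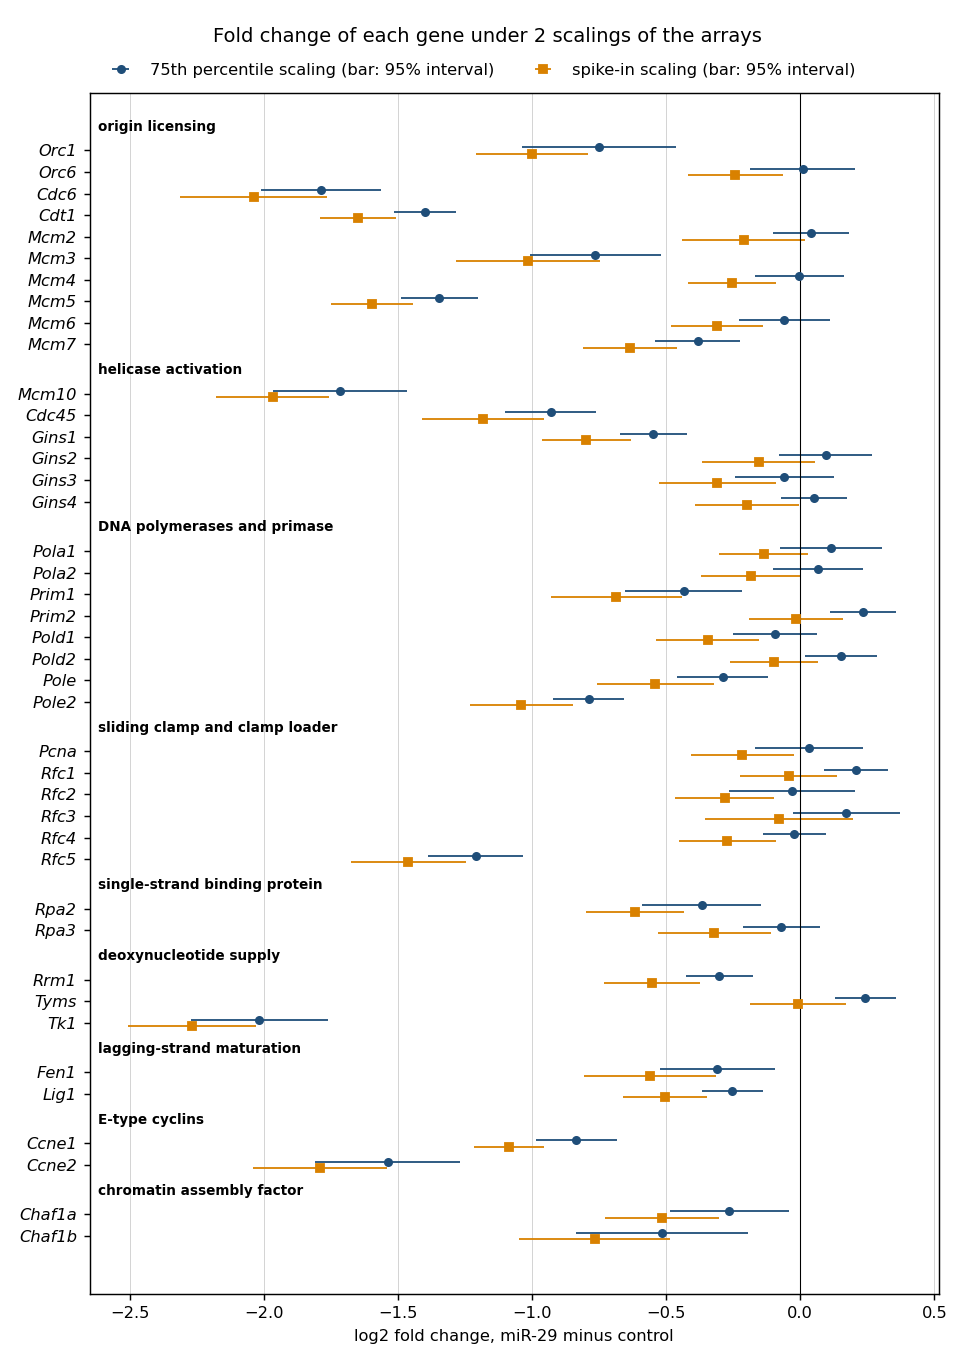
Log2 fold change, miR-29 minus control, of each gene by 75th percentile scaling (blue circles) and by spike-in scaling (orange squares), with 95% intervals as bars (n = 3 per group). The spike-in points sit 0.25 further left for every gene; Prim2, Rfc1 and Tyms are right of 0 by the first scaling and at or just left of 0 by the other.

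With the slide as a block, 23 of the 41 were lower, where 18.3% of everything tested was lower, and 3 were higher, where 28.7% of everything tested was higher (median of the 41 -0.32). The 22 lower genes all had negative values within slide 1, which follows from their miR-29 arrays lying below every control array. The 7 genes that were 2-fold lower ran from -1.29 (Rfc5) to -2.15 (Tk1) with the slide as a block (limma, adjusted p between 0.000495 and 0.001). Changes of calls were Pold1, now lower, Rfc3, now higher, and Rfc1, no longer past the threshold.

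Subunits of 1 complex were also compared on the same array, as the difference of their log2 signals, which no scaling of an array changes. The 5 pairs were chosen after the values had been seen, 1 subunit that fell with 1 of the same complex that did not. Their direction follows from the choice, which also favours groups that lie apart, so these values are a description. Mcm5 minus Mcm6 was -4.78, -4.73 and -4.87 after miR-29 and -3.59, -3.42 and -3.51 in the controls, a difference of -1.29 between the groups. Rfc5 minus Rfc1 was -3.11, -2.95 and -3.14 after miR-29 and -1.60, -1.66 and -1.68 in the controls, a difference of -1.42. In both of these pairs, replicates of a group lie far closer together than the groups do.

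Prim1 minus Prim2 was -0.91, -0.70 and -1.04 after miR-29 and -0.16, -0.33 and -0.15 in the controls, a difference of -0.67. Gins1 minus Gins4 was -2.39, -2.39 and -2.34 after miR-29 and -1.64, -1.83 and -1.85 in the controls, a difference of -0.60. Rpa2 minus Rpa3 was -1.24, -1.25 and -1.44 after miR-29 and -0.80, -1.10 and -1.15 in the controls, the smallest difference of the 5, at -0.30. The groups do not overlap in any of the 5 pairs, which the choice of pairs favoured, and for Rpa2 they lie close. Against control replicate 1 alone, on the same slide, the differences in this order (Mcm5, Rfc5, Prim1, Gins1, Rpa2) were -1.20, -1.47, -0.73, -0.73 and -0.52.

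**Figure D3:**
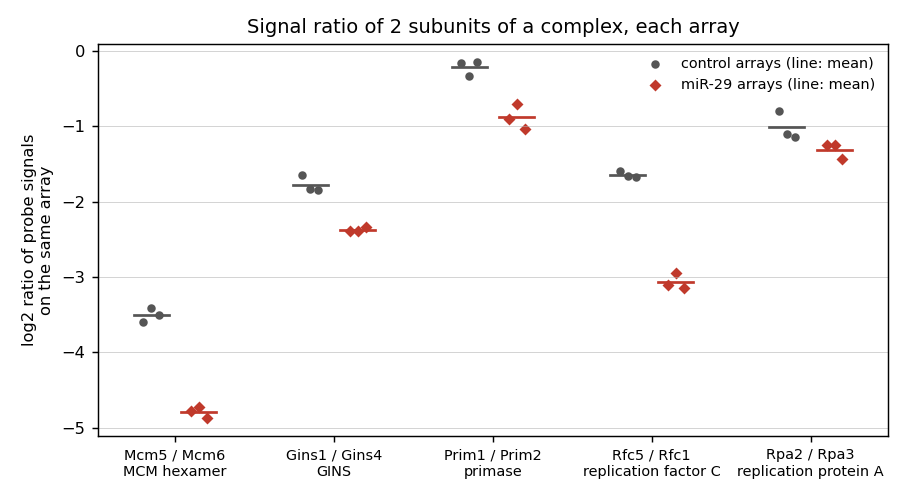
Log2 ratio of the probe signals of 2 subunits of a complex on the same array (vertical axis), for 5 pairs; grey circles are control arrays, red diamonds miR-29 arrays and lines group means. The means differ by 1.29 for Mcm5 over Mcm6 and by 1.42 for Rfc5 over Rfc1, and by 0.30 for Rpa2 over Rpa3, with no overlap in any pair. The pairs were chosen after the values had been seen, which favours such separation.

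Other genes of the pathway, from lists of non-members, were mixed, and their shares are to be read beside 22.8% lower and 35.3% higher of everything tested, or 38.5% and 15.2% by the spike-ins. Of 31 other initiation and replisome genes, 10 fell (32.3%) and 8 rose (25.8%; median 0.0046), and the spike-ins gave 15 lower (48.4%) and 3 higher (9.68%). Pclaf, which binds Pcna, fell by 1.98 (SE 0.0828, adjusted p = 4.12e-05). Clspn, the checkpoint mediator Claspin, fell by 1.44, and Dscc1, part of an alternative clamp loader, fell by 1.34.

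Among 15 other nucleotide synthesis genes, 3 fell (20.0%) and 5 rose (33.3%; median 0.16), close to the shares of everything tested, and the spike-ins gave 4 lower (26.7%) and 2 higher (13.3%). Ctps, the enzyme that makes CTP, fell by 1.13 (SE 0.0547, adjusted p = 5.37e-05). Rrm2b, the p53-regulated small subunit of ribonucleotide reductase, rose by 0.70 (SE 0.0756, adjusted p = 0.000619), and by 0.45 (adjusted p = 0.00656) with spike-in scaling. Cad, which starts pyrimidine synthesis, rose by 0.50, or 0.25 (adjusted p = 0.0321) by spike-in scaling, and its other probes gave 0.12 to 0.49.

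Among 19 genes of the E2F, RB and DREAM complexes, which control S-phase transcription, 6 fell (31.6%) and 8 rose (42.1%; median 0.044), and the spike-ins gave 8 lower (42.1%) and 4 higher (21.1%). The activator E2f1 was at -0.039 (SE 0.0479, adjusted p = 0.509) and did not pass, while spike-in scaling gave -0.29 (adjusted p = 0.00927). The repressors E2f7 and E2f8, themselves made in S phase, fell by 1.36 (SE 0.178, adjusted p = 0.00131) and 1.22 (SE 0.103, adjusted p = 0.000255). Other E2F genes, named after their values were seen, rose: E2f3 by 0.73, E2f5 by 0.99 and E2f6 by 0.48. By spike-in scaling these were 0.48 (adjusted p = 0.000739), 0.74 (adjusted p = 0.00324) and 0.23 (adjusted p = 0.0356). The further E2f3 probes gave 0.29 and 0.49, and E2f2 and E2f4 did not pass. Mybl2, the B-Myb factor, fell by 1.05. Rb1, the retinoblastoma protein that restrains E2F, rose by 0.57 (SE 0.0463, adjusted p = 0.000227), and by 0.32 (adjusted p = 0.00878) with spike-in scaling.

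The S-phase kinases and their regulators gave 9 lower (64.3%) and 5 higher (35.7%) of 14 tested, with a median of -0.50, and 9 lower and 2 higher by spike-in scaling. Cyclin A2 (Ccna2), the S-phase and G2 cyclin, fell by 1.86 (SE 0.0665, adjusted p = 3.13e-05), and its kinase Cdk2 fell by 0.86 (SE 0.089, adjusted p = 0.000523). Cdkn1a, the p21 inhibitor of these kinases, fell as well, by 1.03 (SE 0.066, adjusted p = 0.000104). Other members of the list, named after their values were seen, went the other way. The inhibitor Cdkn1c was higher by 0.74, and by 0.49 (adjusted p = 0.00156) with spike-in scaling. Cyclin A1 (Ccna1) was higher by 1.03, and by 0.78 (adjusted p = 0.000203) with spike-in scaling. The inhibitor Cdkn1b and the phosphatase Cdc25a were higher by 0.37 and 0.52, and did not pass by the spike-ins, at 0.11 (adjusted p = 0.359) and 0.27 (adjusted p = 0.154). Cdc25c, the phosphatase for entry into mitosis, fell by 1.05.

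Replication checkpoint and fork repair genes gave 6 lower (46.2%) and 4 higher (30.8%) of 13 tested, with a median of -0.061, and 8 lower and 2 higher by spike-in scaling. Exo1, a nuclease that resects DNA ends, fell by 1.13 (SE 0.0884, adjusted p = 0.000198), Brca1 by 0.80 and the helicase gene Blm by 0.79. Atr and Brca2, named after their values were seen, were each higher by 0.49. By spike-in scaling each was higher by 0.24 (adjusted p = 0.0377 for Atr and 0.0198 for Brca2). The further Atr probes gave 0.039 and 0.35. Histone chaperones and replication-coupled chromatin genes gave 4 lower (33.3%) and 3 higher (25.0%) of 12, with a median of 0.012, and 6 lower and 0 higher by spike-in scaling. Cdca7 fell by 1.40 (SE 0.0536, adjusted p = 3.87e-05), the chaperone Asf1b by 0.76 and Uhrf1, which guides maintenance DNA methylation, by 0.61. Those that rose were Ssrp1 (0.41), Rbbp4 (0.35) and Cabin1 (0.34), also named after their values were seen.

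All 10 mitotic markers fell, with a median of -0.95. Spike-in scaling gave the same count, and 8 were past the threshold with the slide as a block. Aurkb fell by 1.77 (SE 0.139, adjusted p = 0.000199), Mki67, the gene of the proliferation antigen Ki-67, by 1.40 (SE 0.0888, adjusted p = 0.000102) and Plk1 by 1.29. These markers moved with the replication genes, and their part in the result was not tested.

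**Figure D4:**
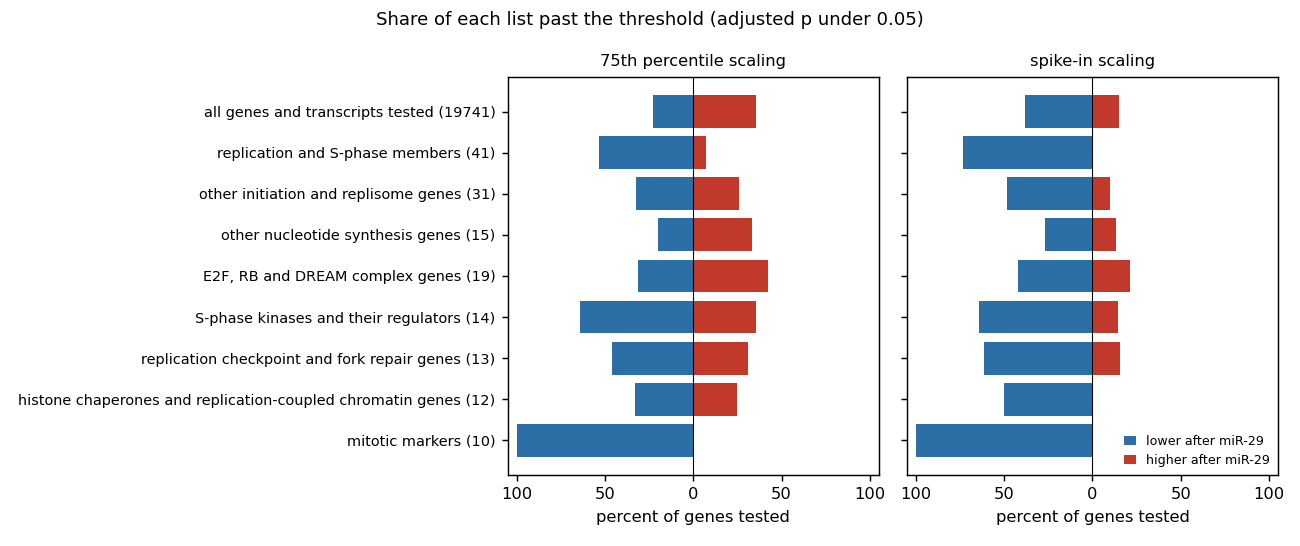
Percent of the genes tested in each list that were lower (blue, to the left) or higher (red, to the right) after miR-29, by 75th percentile scaling and by spike-in scaling; numbers in brackets are genes tested. By 75th percentile scaling 53.7% of the replication and S-phase genes were lower and 7.32% higher; of the other lists plotted, those with larger lower shares were the S-phase kinases (9 of 14) and the mitotic markers (10 of 10).

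The E2F forms were then counted over longer windows, from 250 bases before the start to 50 after it. At least 1 form was in 13 of the 40 windows of the listed genes (32.5%), against 744 of all 32851 windows (2.26%). Over windows of tested genes the share was 3.56%. It was 32.3% for the other initiation and replisome genes and 36.8% for the E2F, RB and DREAM genes, whose changes were mixed. For the mitotic markers and the other nucleotide synthesis genes it was 0%. CCAAT, the NF-Y box common in cell cycle promoters, was in 23 of 40 (57.5%) against 37.4%. The genes with a form were Cdc6, Cdt1, Gins3, Lig1, Mcm3, Mcm5, Mcm6, Mcm7, Orc1, Pola1, Pold1, Pole2 and Rfc3, of which 8 fell, 0 rose and 5 did not pass (median -0.38). Of the 20 tested genes whose windows held none, 11 fell, among them Tk1, Mcm10 and Rfc5, 2 were higher by 75th percentile scaling and 7 did not pass (median -0.28). With the 250 bases before the start alone the order turned, to a median of -0.22 with a form (4 of 8 lower) and -0.30 without (15 of 25 lower). In the longer windows the ranges of the sets overlap almost wholly, from -1.79 to 0.17 with a form and from -2.02 to 0.24 without. Tested genes with CCAAT had a median of -0.17 (n = 20) and those without a median of -0.52 (n = 13). These are descriptions of letters in 1 window per start, without a test.

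**Figure D5:**
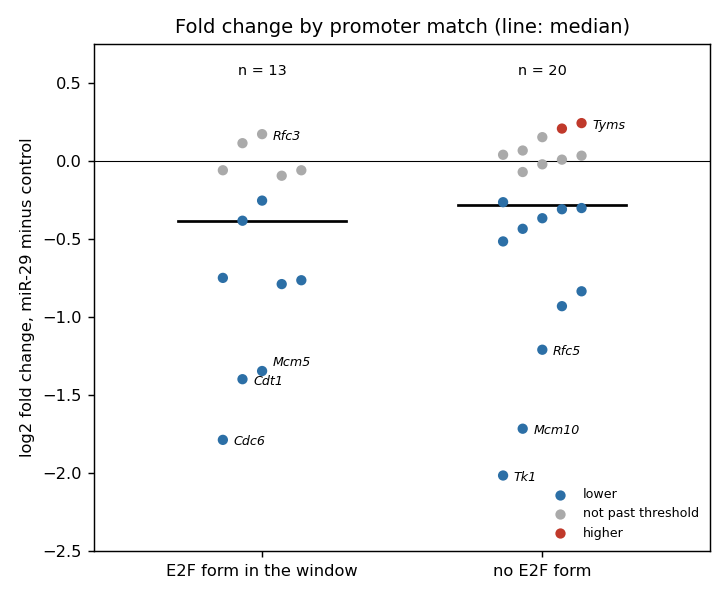
Log2 fold change, miR-29 minus control, of the tested genes whose promoter window holds an E2F form (13 genes) and of those whose window holds none (20 genes); by 75th percentile scaling, blue was lower, red higher and grey not past the threshold, and lines are medians (-0.38 and -0.28, an order that turned when only the bases before the start were searched). Strongly lowered genes appear on both sides, Cdc6 with a form and Tk1 without.

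The labelled cell type was checked against markers. All 10 astrocyte markers were tested, with 6 higher (60%) and 1 lower (10%), where 35.3% of everything tested was higher and 22.8% lower. By spike-in scaling 5 were higher (50%) and 1 lower (10%), where 15.2% of everything tested was higher and 38.5% lower. Their summed linear signal, in units of the array's 75th percentile, was 89.1 to 98.1 after miR-29 against 60.1 to 63.8 in the controls. Such a sum is a total over probes, carried by the brightest ones. Slc1a3, the astrocyte glutamate transporter, rose by 1.68 (SE 0.0874, adjusted p = 6.09e-05). Others are named after their values were seen. Gja1, the marker that was lower, fell by 0.34 (SE 0.0824, adjusted p = 0.0141), and was at -0.59 (adjusted p = 0.00328) by spike-in scaling. Aqp4, S100b and Slc1a2 did not pass on their main probes.

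Markers of other cells moved in both directions. Their counts, by 75th percentile scaling, are to be read beside 35.3% higher and 22.8% lower of everything tested. These lists are short, so 1 gene shifts a share widely. Of 9 fibroblast and mural markers 8 were tested, with 5 higher and 2 lower, and their summed signal was 588.5 to 637.7 against 444.8 to 492.9. Of 7 microglial markers 3 were tested, with 1 higher and 2 lower, and the sum was 3.13 to 3.38 against 4.18 to 4.72. That sum is nearly all Tmem119, which was at 1.68, 1.70 and 1.61 after miR-29 and 2.21, 2.08 and 2.00 in the controls on the log2 scale. Csf1r fell by 1.39 on its main probe while its further probe gave 0.37, and P2ry12 was higher by 0.53. Aif1, Itgam, Cx3cr1 and Cd68 were not tested. The oligodendrocyte lineage had 4 higher and 2 lower of 8 (sums 7.36 to 7.81 against 7.21 to 11.8). Its upper control sums come from Mag, which did not pass and stood on the log2 scale at 2.13, 3.16 and 2.99 in the controls, control replicates 2 and 3 being on slide 2, and at 2.33, 2.23 and 2.17 after miR-29. Neurons had 2 higher and 3 lower of 8 (4.76 to 4.83 against 4.78 to 4.97), and endothelium 2 higher and 1 lower of 4 (1.77 to 1.90 against 2.07 to 2.45). Pecam1, Tek, Cldn5, Mog, Rgs5, Snap25 and Gad1 were not tested. The part of these markers in the fall of the replication genes was not tested.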

How the data were processed

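Gene expression was measured on 6 one-colour Agilent arrays, 3 per group. Per the file headers, Agilent Feature Extraction 10.7.3.1 gave the spot intensity (10.7 in the submitters' processing notes). The deposited processed signal is an intensity on a linear scale, with local background subtracted per the file headers. The authors' deposited series table holds the same intensity multiplied by 1 constant per array (2.627 to 3.427). Columns of other samples numbered 0.

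Values under 1 were raised to 1, and the log2 processed signal minus the log2 of each array's 75th percentile was used, without control and outlier-flagged spots. Probes were kept where every array of a group, or of both, read well above background (26428 of 41174). Accessions matched a RefSeq symbol (GRCm38.p6) for 26933 probes and none for 14241. The kept probe with the highest mean stood for a gene. limma 3.58.1 (lmFit, eBayes) in R 4.3.3 tested 19741 genes and transcripts, two-sided, at a Benjamini-Hochberg adjusted p of 0.05. The procedure was tested on simulated data. Normexp, as an alternative, used the median spot signal, with an offset of 50. The other alternatives were 4 further scalings, the deposited table, filters, another variance model, probe rules, slide and replicate blocks and each array left out.

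The members and lists were chosen with earlier results of these data known. All members are named; of each other list at most the 3 largest changes past the threshold, plus E2f1, Rb1, Cdkn1a, Cdk2 and Ccna2, and a few said to be named after their values were seen. Promoter motifs were searched in RefSeq windows on both strands.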

Additional observations from a re-analysis of the deposited data

How the results depend on the processing

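The count of lower genes was 22 in the main setting and between 19 and 30 under the alternatives tried, and 19 of the 22 stayed past the threshold with the same direction under all 19 alternatives with a test. The exceptions were Fen1, Chaf1a and Chaf1b, lost in settings that leave out an array, and Fen1 and Chaf1a also with median centring, with no filter on dim probes and with the replicate block. With each array left out in turn the count ran from 19 to 22 lower and from 3 to 4 higher, and the median from -0.32 to -0.24.

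Normexp background correction, with 50 added to every signal, made the fold changes of some genes smaller. Such an addition shrinks the fold changes of dim probes by construction. Cdc6 went to -0.88, Orc1 to -0.22 and Cdc45 to -0.51, each still past the threshold. Cdt1 and Mcm5 stayed at least 2-fold lower, at -1.42 and -1.22. The scaling had larger effects on the calls. Higher genes went from 3 to 0 with the detected spike-in types and to 0 with all spike-in spots, and the median log2 fold change to -0.51 and -0.46. The added setting of spike-in scaling with slide as a block, chosen after seeing the data, gave 26 lower. The share of everything tested that was lower is not given for that setting, where the median over all genes was -0.0995. The 26 therefore have no share to be read beside. All genes above 0 in the main setting were below 0 with the detected types. Among them, those past the threshold in either setting were Orc6 (-0.24), Prim2 (-0.016), Rfc1 (-0.043) and Tyms (-0.0078). That shift is the same for every gene by construction. Rfc1 was also not past the threshold with median centring and with quantile normalization (limma, adjusted p = 0.0688 and 0.0537). The cause of these losses was not tested. Pola1 passed as higher without miR-29 replicate 3 (adjusted p = 0.0392), and Pold2 with the trend and robust variance (adjusted p = 0.0389). In the 250 bases before the start only, 8 member windows held an E2F form, since fewer bases were searched, and the order of the medians turned: -0.22 with a form (n = 8) and -0.30 without (n = 25).

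The labels do not say that replicate numbers pair the samples, and the main fit did not pair them. Deviations of same-numbered arrays correlated at 0.132, 0.0938 and 0.245. Every array correlated best with its own number, a hint from the data and not the design. With the replicate block 20 genes were lower and 3 higher, with Fen1 and Chaf1a lost (limma, adjusted p = 0.0616 and 0.0615). All 41 genes were well above background on every array, so none of their fold changes is a bound. Precision is limited by the 3 arrays per group, and by the slide, which the miR-29 arrays share with 1 control array.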

Other observations

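Some subunits of complexes that act in replication, outside the listed genes, were higher by 75th percentile scaling, and others of the same complexes did not pass. They are named here after their values were seen. Of the origin recognition complex, whose Orc1 fell, Orc4 rose by 0.64 (SE 0.0454, adjusted p = 0.000142, n = 3 per group) and still by 0.39 (adjusted p = 0.003) with spike-in scaling, and its further probes gave 0.67 and 0.73. Orc5 rose by 0.38 (SE 0.0613, adjusted p = 0.00278) and Orc2 by 0.22 (SE 0.0628, adjusted p = 0.0261), but neither passed with spike-in scaling, where Orc5 was 0.13 (adjusted p = 0.244) and Orc2 -0.032 (adjusted p = 0.713). Orc3 was at 0.035 and did not pass.

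RNase H2 removes RNA from replicated DNA. Rnaseh2a, its catalytic subunit, rose by 0.53 (SE 0.0672, adjusted p = 0.0011) and Rnaseh2c by 0.66 (SE 0.0853, adjusted p = 0.00119), with 0.28 (adjusted p = 0.0112) and 0.41 (adjusted p = 0.00453) by spike-in scaling. Rnaseh2b was at 0.13 and did not pass (adjusted p = 0.0946).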
